A study of Mus musculus with 2 samples.

Results

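The cells described here are the Spp1-positive monocytes and macrophages of mouse maxillary periodontium, the gum, ligament, cementum and bone that hold the upper teeth. Spp1 encodes osteopontin, a secreted phosphoprotein that binds integrins and CD44. A droplet barcode counted as a member when it had at least 200 genes, at most 20% mitochondrial UMIs (unique molecular identifiers, 1 per captured mRNA), at least 5 UMIs of Spp1, at least 2 of Tyrobp and at least 2 of Lyz2, Cd68 and Csf1r together. It also had to have fewer than 3 UMIs of Acp5, fewer than 3 of Cd79a, fewer than 10 of Krt5 and Krt14 together and fewer than 5 of Dcn. These limits kept out barcodes rich in Acp5, a gene of osteoclasts, and B cell, keratinocyte and fibroblast barcodes. The rule found 100 members among 32641 kept barcodes, 81 in the library titled RP and 19 in the library titled 377P.

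The series holds 2 droplet libraries of the tissue, and its title concerns diabetic periodontitis as it resolves. The labels do not say what RP or 377P stands for, and no strain, genotype, age, treatment or number of animals is given in the sources used here. Neither library is a stated control, so each is called by its title. With 1 library per title, a difference between RP and 377P cannot be told apart from a difference between any 2 libraries, and it was not tested. Intervals are exact 95% intervals and cover counting error only.

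Macrophages that make osteopontin are known from healing wounds, fibrotic organs, tumours, fatty tissue and demyelinated brain. They often carry a lipid-handling and lysosomal program that includes TREM2, a surface receptor for lipids, and GPNMB, a transmembrane glycoprotein of phagosomes and lysosomes. In bone and teeth, osteopontin is also a product of osteoblasts, odontoblasts and cementoblasts, and osteoclasts attach to it through the integrin alpha v beta 3.

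In the GRCm38 (mm10) mouse genome, Spp1 lies on the plus strand at chr5:104435118-104441050, Gpnmb on the plus strand at chr6:49036546-49070929 and Trem2 on the plus strand at chr17:48346401-48354147. The promoters of these genes are shown because their RNAs were high together in the members. They run from 250 bases before to 50 bases after the RefSeq start (GRCm38.p6, plus strand), at chr5:104434861-104435160, chr6:49036268-49036567 and chr17:48346151-48346450.
Spp1: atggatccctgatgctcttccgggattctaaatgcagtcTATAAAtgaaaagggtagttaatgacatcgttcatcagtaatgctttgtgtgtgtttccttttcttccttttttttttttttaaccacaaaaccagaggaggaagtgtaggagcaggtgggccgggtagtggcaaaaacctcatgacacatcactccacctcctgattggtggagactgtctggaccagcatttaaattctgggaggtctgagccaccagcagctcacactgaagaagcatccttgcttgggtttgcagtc
Gpnmb: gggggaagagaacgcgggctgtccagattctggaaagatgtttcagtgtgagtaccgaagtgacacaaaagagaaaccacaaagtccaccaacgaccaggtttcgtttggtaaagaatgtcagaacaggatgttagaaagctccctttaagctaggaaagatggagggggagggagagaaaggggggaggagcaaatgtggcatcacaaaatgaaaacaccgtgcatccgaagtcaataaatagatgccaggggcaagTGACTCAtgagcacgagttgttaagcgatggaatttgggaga
Trem2: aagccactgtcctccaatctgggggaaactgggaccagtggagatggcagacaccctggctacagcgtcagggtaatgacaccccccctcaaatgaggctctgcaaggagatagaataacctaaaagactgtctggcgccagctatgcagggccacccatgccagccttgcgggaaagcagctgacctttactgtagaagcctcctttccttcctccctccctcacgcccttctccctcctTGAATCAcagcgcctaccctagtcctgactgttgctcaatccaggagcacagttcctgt
Capitals mark every match, on either strand, to the motifs searched. These were the core promoter box TATAAA, the AP-1 site TGANTCA, the E-box CACGTG and its variant CATGTG. The hypoxia response core ACGTG, which lies within the first E-box, was searched as well. In the Spp1 window the match was TATAAA, which begins at offset -211 from the start. Gpnmb had TGACTCA at offset 8, and Trem2 had TGAATCA at offset -9. Among 32851 promoters of this length, 13.6% held TATAAA and 7.81% held TGANTCA. The other motifs, held by 7.15% of promoters (CACGTG), 14.2% (CATGTG) and 19.6% (the hypoxia core), had no match in these 3 windows.

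Both libraries were deep, with 120909095 UMIs over 18112 barcodes in RP and 127094166 UMIs over 15466 barcodes in 377P. The members held 526105 UMIs in RP and 134626 in 377P, so values of the 19 members of 377P carry wider intervals. A member had a median of 5913 UMIs in RP (596 to 13601) and 6776 in 377P (2162 to 14641). The richest barcode gave 2.59% of the members' UMIs in RP and 10.9% in 377P. The libraries share 82 barcodes, none of them a member. Scrublet, a doublet caller, marked 4 of 81 members of RP and 0 of 19 members of 377P, and these were kept.

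Members made up 0.468% of the kept barcodes of RP (81 of 17290, 0.372 to 0.582%) and 0.124% of those of 377P (19 of 15351, 0.0745 to 0.193%). Among mononuclear phagocytes, which are the barcodes that meet the rule without its Spp1 part, they made up 11.9% in RP (81 of 683, 9.53 to 14.5%) and 6.35% in 377P (19 of 299, 3.87 to 9.75%). The intervals did not overlap for the first denominator and overlapped narrowly for the second. With each barcode of at least 3000 UMIs thinned to 3000 and the rule applied again, the shares of kept barcodes were 0.459% in RP and 0.149% in 377P. Of the other mononuclear phagocytes, 504 in RP and 237 in 377P had no Spp1 UMI, and 98 and 43 had 1 to 4.

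The choice rested on Spp1, so its level is a description. Members had 15 Spp1 UMIs at the median in RP (5 to 294) and 12 in 377P (5 to 72). Summed over members, Spp1 reached 6056 CPM (the UMIs of a gene as a share of all UMIs of the set, on the usual CPM scale) in RP (5847 to 6270) and 3098 CPM in 377P (2807 to 3410). The 5 members richest in Spp1 held 33.6% of the members' Spp1 UMIs in RP and 65.2% in 377P. At the edge of the rule, barcodes with 5 or 6 Spp1 UMIs numbered 9 in RP and 2 in 377P, and those with 3 or 4 numbered 26 and 7. In RP, Gpnmb stood at 2908 CPM just inside the limit and at 1014 CPM just outside it, so the barcodes below the limit were not free of this gene. In 377P the order was the opposite, with 0 CPM in the 2 barcodes just inside and 357 CPM in the 7 just outside.

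**Figure D1:**
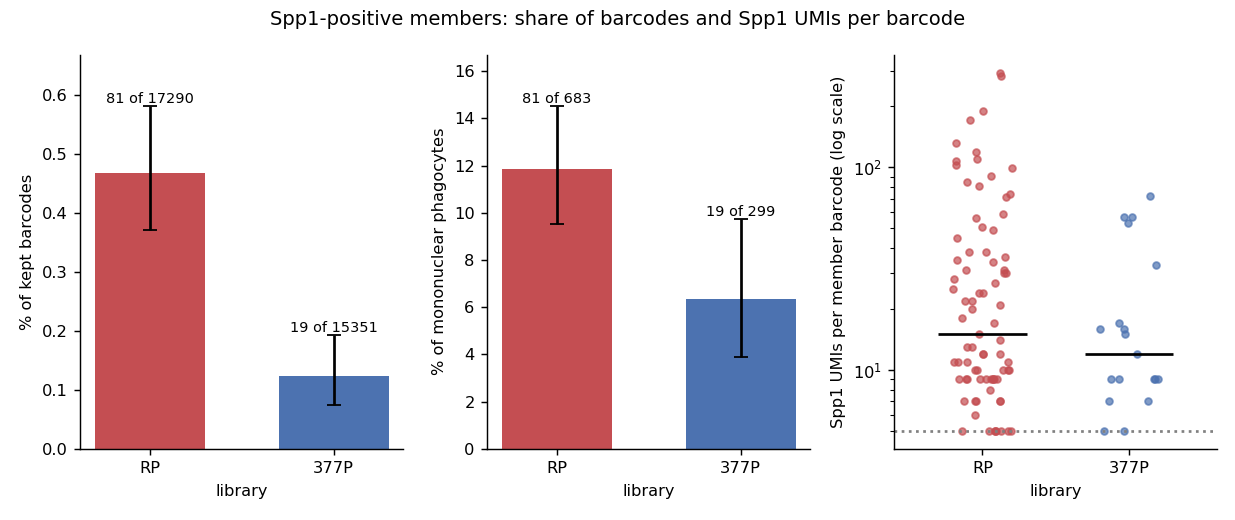
The left and middle panels plot the share of Spp1-positive members among kept barcodes and among mononuclear phagocytes in RP and 377P, with exact 95% binomial intervals as error bars. The right panel plots the Spp1 UMIs of each member on a log scale, with the median as a line and the limit of 5 UMIs dotted: RP members reached 294 UMIs and 377P members 72.

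In RP, members held more of the Spp1 RNA than any other set of barcodes, and in 377P they held a small part of it. They held 45.7% of the Spp1 UMIs of kept barcodes in RP and 7.71% in 377P. In 377P, 26 barcodes that express the bone and dentin genes Ibsp, Dmp1 or Bglap held 17.6%, at 2828 CPM, and 27 such barcodes of RP held 1.32%, at 413 CPM. A single barcode gave 52.2% of that Spp1 in 377P and 94.6% in RP. Barcodes with marks of several cell types, with Tyrobp but outside the phagocyte gate, or with no mark used here held 33.9% of the Spp1 UMIs in RP and 57.6% in 377P, at 36.9 and 40.0 CPM. Fibroblast-type barcodes held 11.3% in RP and 10.6% in 377P, at 43.7 and 49.8 CPM. Spp1 was seen at 8.76 CPM in T cell-type and 7.75 CPM in B cell-type barcodes of RP, and at 6.90 and 7.08 CPM in those of 377P. Lymphocytes without Tyrobp were chosen as cells that should hold little Spp1, as a guide to free RNA. How much of their Spp1 was free RNA was not tested. Phagocytes with at least 3 Acp5 UMIs averaged 174 CPM of Spp1 in RP (33 barcodes) and 106 CPM in 377P (10 barcodes). Of those 33 and 10, 3 and 0 had 5 Spp1 UMIs or more. They were set apart by Acp5 alone and are not all osteoclasts by their markers. The macrophage gene C1qa stood at 1937 CPM in RP and 1257 CPM in 377P there, and the osteoclast gene Oscar was at 0 in both.

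The label of monocyte or macrophage was checked on markers outside the rule, since Lyz2, Cd68 and Csf1r chose the members. As a description of that choice, Lyz2, which encodes lysozyme, had a UMI in 81 of 81 members of RP and 19 of 19 members of 377P, and Cd68, a lysosomal glycoprotein of macrophages, in 69 and 17. Csf1r, the receptor that macrophages depend on for survival, had a UMI in 55 of 81 members of RP and 17 of 19 members of 377P. Each of 10 macrophage identity genes outside the rule, among them Adgre1 and Fcgr1, had at least 1 UMI in the summed members of both libraries. So had each of 6 epithelial and 6 fibroblast markers, so this alone does not set the label. The 10 genes summed to 5362 CPM in RP members and 5489 CPM in 377P members, against 218 and 248 CPM in all barcodes outside the phagocyte gates. After thinning to 3000 UMIs, Adgre1, which encodes the macrophage surface protein F4/80, was seen in 52.1% of RP members and 52.9% of 377P members, against 1.45% and 0.056% of lymphocytes. Unthinned, it had a UMI in 52 of 81 RP members and 13 of 19 377P members. The monocyte gene Ly6c2 was seen after thinning in 8 of 73 RP members and 4 of 17 377P members. The interval of this share was 4.85 to 20.5% in RP and 6.81 to 49.9% in 377P. Each covered the share of lymphocytes (16.3% in RP and 11.03% in 377P), so Ly6c2 shows no direction against them. Ccr2 was seen in 17.8% of RP members and 17.6% of 377P members, above the 3.78% and 2.02% of lymphocytes. Plac8 was seen in 20.5% and 23.5% of members, below the 28.5% and 31.5% of lymphocytes, which its intervals covered. The monocyte genes thus differed, and whether they mark members as monocytes was not tested. Arg1, an arginine-consuming enzyme given as a marker of these cells, was in 24 of 81 members of RP and 12 of 19 members of 377P, so it marked a fraction of them. Cd3e, Flt3 and Cxcr2, which mark T cells, dendritic cells and neutrophils, were at 0 in the members of both libraries. Other markers of these types were not all at 0. Of 8 T or NK cell markers, 5 were at 0 in RP members and 6 in 377P members. Of 8 dendritic cell markers 3 and 5 were at 0, and of 10 neutrophil markers 2 and 3. S100a8 had a UMI in 27 of 81 RP members and 7 of 19 377P members, and S100a9 in 19 and 8.

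Genes of other cell types were also counted in members, and how much of this was free RNA was not tested. The gland and nasal list summed to 15729 CPM in RP members and 1946 CPM in 377P members, against 16577 and 2239 CPM in the phagocytes with no Spp1. The 6 epithelial markers summed to 673 CPM in RP members and 721 CPM in 377P members, against 4043 and 3715 CPM in all barcodes outside the phagocyte gates. The 6 fibroblast markers summed to 409 and 483 CPM, against 3530 and 3726 CPM outside the gates.

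To see what goes with Spp1, members were set against the phagocytes with no Spp1 UMI (Spp1-zero, 504 barcodes in RP and 237 in 377P). Spp1-zero barcodes had a median of 4642 UMIs in RP and 5400 in 377P, fewer than the 5913 and 6776 of members. The test was edgeR's quasi-likelihood test on UMIs summed per library and set, with the library as a block. Of 8175 genes tested, 149 rose (1.82%) and 198 fell (2.42%), together 347 genes (4.24%), at a Benjamini-Hochberg adjusted p under 0.05. The block takes out the difference of each gene between the 2 libraries, which share no stated origin. The p-values rest on how far the libraries disagreed on the difference between the sets, and on variance pooled over genes. That disagreement may be technical. Without the library block 3 genes rose and 6 fell. DESeq2, an alternative test, called 60 of the 8175 genes higher and 47 lower. It gave no adjusted p for 3645 of them, and such genes count as not called in the DESeq2 counts below. With barcodes of at least 3000 UMIs thinned to 3000, edgeR called 87 of 5467 genes higher and 94 lower. Limited to barcodes of both sets with at least 3 complement C1q UMIs, which holds macrophage-type cells against macrophage-type cells, 11 of 5156 rose (0.213%) and 6 fell (0.116%).

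The lipid-handling program of Trem2 and Gpnmb was raised in members. Of its 20 genes tested, 15 rose and none fell, with a median log2 fold change of 1.03 against -0.02 over all genes. With DESeq2, 7 of the 20 rose and none fell. Its members had been picked from knowledge of Spp1-positive macrophages and with earlier results of these libraries known, so the count describes the list and is no independent support. With both sets limited to complement-positive barcodes (45 members in RP and 11 in 377P), 4 of 20 rose (Gpnmb, Lpl, Syngr1 and Fabp4). The median log2 fold change of the 20 was 0.76 there, against -0.03 over all genes of that fit.

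Gpnmb stood at 1599 CPM in RP members (1492 to 1710) and 334 CPM in 377P members (244 to 447), against 111 and 85.1 CPM in Spp1-zero phagocytes. It was higher in the members of both libraries, with a log2 fold change of 3.04 (edgeR adjusted p = 2.38e-28). DESeq2 gave 2.87 for it with an adjusted p of 0.0581, which ends the call. Trem2 stood at 589 CPM in RP members (525 to 659) and 230 CPM in 377P members (156 to 327), against 112 and 64.8 CPM (log2 fold change 2.14, edgeR adjusted p = 4.39e-13). After thinning to 3000 UMIs per barcode, Gpnmb was seen in 63.0% of RP members and 47.1% of 377P members, against 14.6% and 14.9% of Spp1-zero phagocytes. Lymphocytes at the same depth gave 2.03% in RP and 3.08% in 377P, far below the shares of members. Unthinned, Gpnmb had a UMI in 70.4% of RP members and 47.4% of 377P members, against 17.7% and 16.5% of Spp1-zero phagocytes.

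Genes of fatty acid uptake, transport and storage were part of the same rise. Lpl, which frees fatty acids from lipoproteins, stood at 612 CPM in RP members and 401 CPM in 377P members, against 72.1 and 31.2 CPM (log2 fold change 3.27, edgeR adjusted p = 5.38e-31). In 377P, 83.3% of its UMIs came from 1 of 4 members that had any, and without that barcode the level was 70.4 CPM. Fabp5, a fatty acid chaperone at chr3:10012548-10016607, stood at 3439 CPM in RP members and 1768 CPM in 377P members, against 870 and 1047 CPM (log2 fold change 1.33, edgeR adjusted p = 1.02e-07). Its DESeq2 adjusted p was 0.542. The scavenger receptor Cd36 stood at 779 CPM in RP members and 208 CPM in 377P members, against 244 and 120 CPM. The lipid droplet protein Plin2 stood at 1133 and 527 CPM, against 413 and 351 CPM, and both Cd36 and Plin2 rose. In each of Gpnmb, Trem2, Fabp5, Cd36 and Plin2 the RP members were the higher ones. Mmp12, a macrophage elastase counted among the 15, was higher in the members of RP alone: it stood at 329 CPM in RP members and at 7.43 CPM (1 UMI) in 377P members, against 103 and 44.5 CPM.

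Lysosomal genes rose alongside. Of 22 tested, 13 rose and none fell, with a median log2 fold change of 1.02, and DESeq2 called 8 higher and none lower. Among those that rose were cathepsins, proteases that digest engulfed protein. Ctsl stood at 1515 CPM in RP members and 557 CPM in 377P members, against 215 and 240 CPM (log2 fold change 2.05, edgeR adjusted p = 4.62e-15, DESeq2 adjusted p = 0.292). Ctsd stood at 2176 and 1738 CPM, against 527 and 498 CPM (log2 fold change 1.87, edgeR adjusted p = 2.27e-15), and Ctsb at 3553 and 3187 CPM, against 1289 and 970 CPM (log2 fold change 1.53). In all 3, members were above Spp1-zero phagocytes in each library, though 1 sum per set gives no spread within a library. The log2 ratio of Ctsl was 2.82 in RP and 1.22 in 377P. Prosaposin (Psap), which activates lipid-degrading enzymes, progranulin (Grn), Ctss and legumain (Lgmn) rose with log2 fold changes of 1.34, 1.22, 1.21 and 1.20. With both sets limited to complement-positive barcodes, 1 of 21 lysosomal genes rose, which was Ctsd (log2 fold change 1.75), and the median was 0.58.

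**Figure D2:**
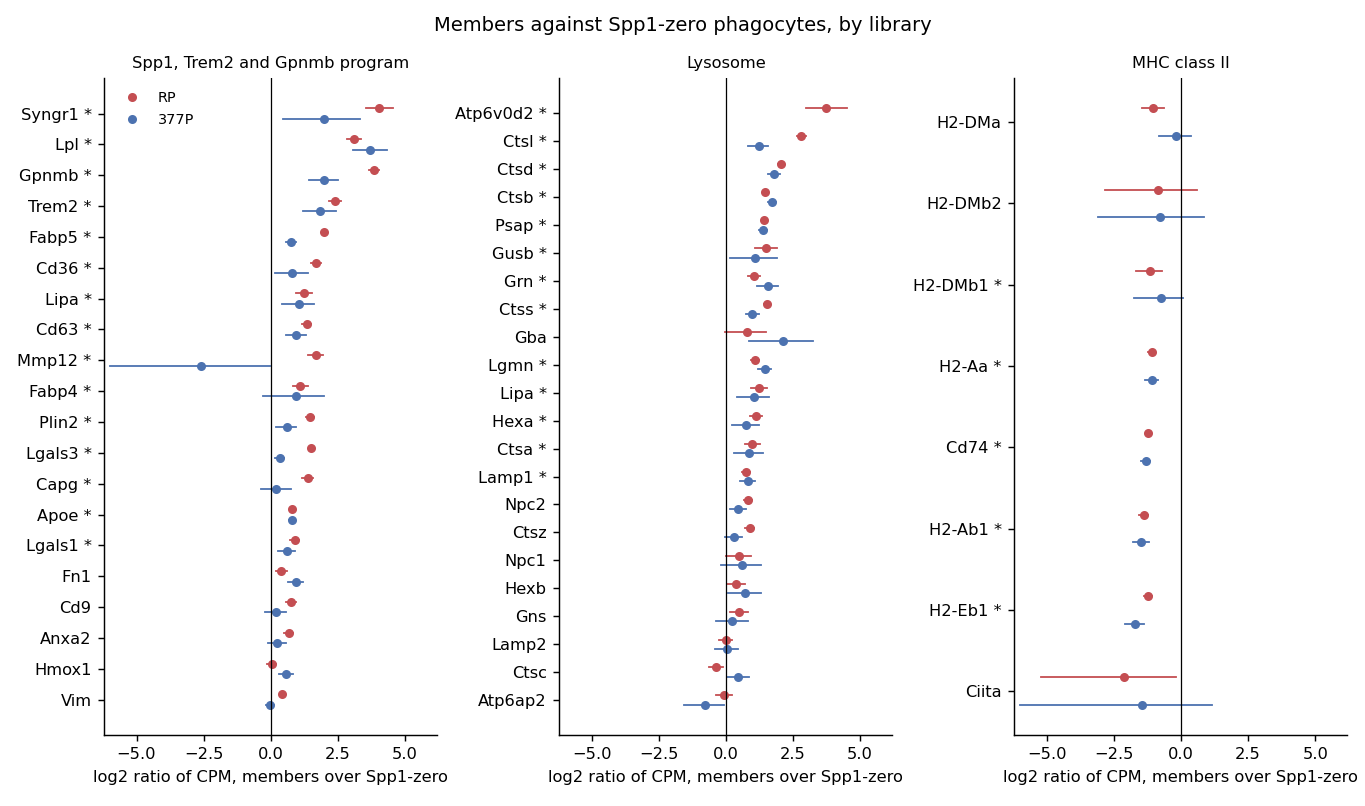
Each row is a tested gene of the lipid program, the lysosome list or the MHC class II list, and the x axis is the log2 ratio of CPM, members over Spp1-zero phagocytes. Points are RP (upper) and 377P (lower), bars are exact 95% counting intervals clipped at 6 either way, and stars mark an edgeR adjusted p under 0.05. Atp6v0d2 has no 377P point because both counts were at or below 3. Lipid and lysosome genes lie mostly right of 0, with Mmp12 of 377P left of it, and MHC class II genes lie left of it.

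Among genes of alternative activation, a state linked to tissue repair, Arg1 and Ccl24 rose while Mgl2 and Clec10a fell, of 13 tested. Arg1, on the minus strand at chr10:24915221-24927484, stood at 274 CPM in RP members (231 to 322) and 735 CPM in 377P members (598 to 895), against 15.9 and 102 CPM (log2 fold change 3.35, edgeR adjusted p = 6.76e-32). Ccl24, which encodes an eosinophil attractant, stood at 928 CPM in RP members and 936 CPM in 377P members, against 83.2 and 83.5 CPM (log2 fold change 3.42, edgeR adjusted p = 2.35e-40). Few cells carried it: 8 of 81 members in RP and 7 of 19 in 377P had a UMI, and 1 barcode held 57.6% of its UMIs in RP and 54.0% in 377P. The RP barcode richest in Ccl24 was also the richest in Arg1, with 49 of the 144 Arg1 UMIs, and had 294 Spp1 UMIs. Mgl2, a lectin of macrophages and dendritic cells, stood at 5.70 CPM in RP members and was at 0 in 377P members, against 46.0 and 28.1 CPM. The related lectin Clec10a stood at 36.1 and 14.9 CPM, against 122 and 81.2 CPM (log2 fold change -1.89).

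Of the receptors for osteopontin, 1 of 7 tested rose. This was Itgav, the alpha v integrin chain, at 498 CPM in RP members and 728 CPM in 377P members, against 248 and 232 CPM (log2 fold change 1.25, edgeR adjusted p = 1.05e-05). Cd44, the other main receptor, stood at 1070 and 1575 CPM, against 1053 and 1148 CPM (log2 fold change 0.17, edgeR adjusted p = 0.832). The log2 fold changes of the others were 0.17 for Itgb1, 0.85 for Itgb5, -0.74 for Itga4, 0.59 for Itga5 and 0.57 for Itga9, and none passed the test. Itgb3, the partner of Itgav in osteoclasts, had 2 UMIs in the members of each library and was too low to test.

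Of 21 inflammatory cytokine and chemokine genes tested, 6 rose and 1 fell. The neutrophil attractants Cxcl1, Cxcl2 and Cxcl3, the cytokine Il1a, its antagonist Il1rn and the prostaglandin synthase Ptgs2 rose, and the chemokine Ccl3 fell. With neutrophil-type barcodes (at least 20 UMIs of S100a8 and S100a9) left out of both sets, 6 of 21 rose and none fell. DESeq2 called 2 of 21 higher, Cxcl2 and Cxcl3, and none lower. Cxcl2 was among the most abundant, at 9664 CPM in RP members and 10325 CPM in 377P members, against 6287 and 5582 CPM (log2 fold change 0.69, edgeR adjusted p = 0.00988). Cxcl3 stood at 395 and 371 CPM, against 139 and 169 CPM (log2 fold change 1.29, edgeR adjusted p = 2.40e-05). Il1b stood at 587 and 550 CPM, against 825 and 607 CPM, and Tnf at 200 and 409 CPM, against 214 and 130 CPM, and neither passed the test. With both sets limited to complement-positive barcodes, none of 20 passed.

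Matrix and growth factor genes moved in both directions, with 6 of 21 higher and 2 lower. Mmp14, a membrane-bound collagenase, stood at 124 CPM in RP members and 186 CPM in 377P members, against 35.3 and 55.4 CPM (log2 fold change 1.73). Timp1, an inhibitor of metalloproteinases, stood at 83.6 and 342 CPM, against 46.4 and 56.2 CPM (log2 fold change 1.63). Vegfa, a vessel growth factor, stood at 194 and 193 CPM, against 70.1 and 69.5 CPM (log2 fold change 1.42). Mmp19, Igf1 and Mmp12 were the other genes that rose, and the neutrophil proteases Mmp8 and Mmp9 fell. With neutrophil-type barcodes left out, 5 of 20 rose and none fell.

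Antigen presentation genes were lower in members. Of 8 MHC class II genes tested, 5 fell and none rose, and all 8 had a log2 fold change below 0 (median -1.24). H2-Ab1 stood at 701 CPM in RP members (632 to 777) and 773 CPM in 377P members (631 to 936), against 1842 and 2160 CPM (log2 fold change -1.49, edgeR adjusted p = 1.31e-09). Its invariant chain Cd74 stood at 2207 and 2370 CPM, against 5176 and 5868 CPM (log2 fold change -1.33). Dendritic cell markers moved with it: the 8 summed to 70.3 CPM in RP members and 66.9 CPM in 377P members, against 162 and 177 CPM, with 3 of 8 at 0 in RP members and 5 of 8 at 0 in 377P members. Their part in the MHC class II difference was not tested. Limited to complement-positive barcodes, the median of the 6 class II genes tested was -1.32 and none passed, with H2-Ab1 at -1.45 (edgeR adjusted p = 0.0595).

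The 8 named genes with the largest falls under the naming rule were Camp, Ngp, Lcn2, S100a9, G0s2, Wfdc21, Retnlg and S100a8, all known from neutrophils. S100a9, a subunit of calprotectin, stood at 454 CPM in RP members and 59.4 CPM in 377P members, against 6382 and 17891 CPM. The 10 neutrophil markers summed to 1137 CPM in RP members and 639 CPM in 377P members, against 13535 and 37126 CPM in Spp1-zero phagocytes. Barcodes with at least 20 UMIs of S100a8 and S100a9 numbered 2 of 81 RP members and 1 of 19 377P members, against 77 of 504 and 54 of 237 Spp1-zero barcodes. With them left out of both sets, none of 6 neutrophil genes tested passed, and S100a9 had a log2 fold change of -0.63 (edgeR adjusted p = 0.560). The cut was made on S100a8 and S100a9 themselves, so the loss of neutrophil calls is no independent result. Over all genes, 123 of 7716 rose (1.59%) and 134 fell (1.74%). Without these barcodes, 14 of 20 lipid program genes and 11 of 22 lysosomal genes rose, and 6 of 8 MHC class II genes fell. Classical monocyte genes were also lower with these barcodes in or out, with 5 of 12 falling each time, among them Hp and Plac8. With both sets limited to complement-positive barcodes, none of 10 fell and the median log2 fold change was 0.10.

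Genes of resident macrophages were mostly not called, with 3 of 16 lower (Mgl2, Cd163 and Clec10a) and none higher. C1qa, a complement subunit, stood at 848 CPM in RP members and 899 CPM in 377P members, against 1123 and 589 CPM, so the libraries went opposite ways. The mannose receptor Mrc1 did the same, at 139 CPM in RP members and 364 CPM in 377P members, against 435 and 238 CPM.

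Part of the osteoclast list was raised although barcodes with 3 or more UMIs of Acp5, the osteoclast phosphatase, had been left out. Of 9 genes tested, 4 rose and 1 fell. Ctsk, a collagen-degrading cathepsin, stood at 165 CPM in RP members and 29.7 CPM (4 UMIs) in 377P members, against 23.0 and 17.2 CPM (log2 fold change 2.35, edgeR adjusted p = 8.97e-08). Atp6v0d2, a proton pump subunit, stood at 110 and 14.9 CPM (2 UMIs in 377P members), against 8.32 and 0.781 CPM (1 UMI in 377P), and Tnfrsf11a, the receptor RANK, at 131 and 134 CPM, against 53.5 and 42.2 CPM. Tcirg1 was the other gene that rose and Mmp9 the one that fell. With neutrophil-type barcodes left out, 4 of 8 rose and none fell. Calcr, Ocstamp and Oscar were at 0 in the members of both libraries. In Acp5-positive phagocytes Ctsk stood at 607 CPM in RP and 285 CPM in 377P, and Gpnmb at 148 and 116 CPM. Members thus had less Ctsk and more Gpnmb than these barcodes in each library, as values with no test. The other genes that rose did not all follow Ctsk. Tnfrsf11a stood at 91.9 and 95.1 CPM in Acp5-positive phagocytes, below the members of each library. Tcirg1 stood at 78.8 and 106 CPM there, against 133 and 59.4 CPM in members. Atp6v0d2 stood at 112 and 42.25 CPM there, against 110 and 14.9 CPM in members.

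Levels did not rise evenly with Spp1. In RP, Gpnmb stood at 111 CPM in barcodes with no Spp1 UMI, 289 CPM with 1 or 2, 1014 CPM with 3 or 4, 2277 CPM with 5 to 9, 718 CPM with 10 to 19, 1721 CPM with 20 to 49 and 1449 CPM with 50 or more. It was thus already high at the limit of the rule and showed no further order above it. H2-Ab1 in RP stood at 1842, 2536, 1799, 828, 1490, 526 and 68.3 CPM over the same steps, low in the 18 barcodes richest in Spp1. In 377P, H2-Ab1 stood at 30.8 CPM in the 4 barcodes with 50 Spp1 UMIs or more, against 2160 CPM in barcodes with none. Steps with fewer than 20 barcodes, which include all steps from 3 Spp1 UMIs up in 377P, rest on few cells.

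**Figure D3:**
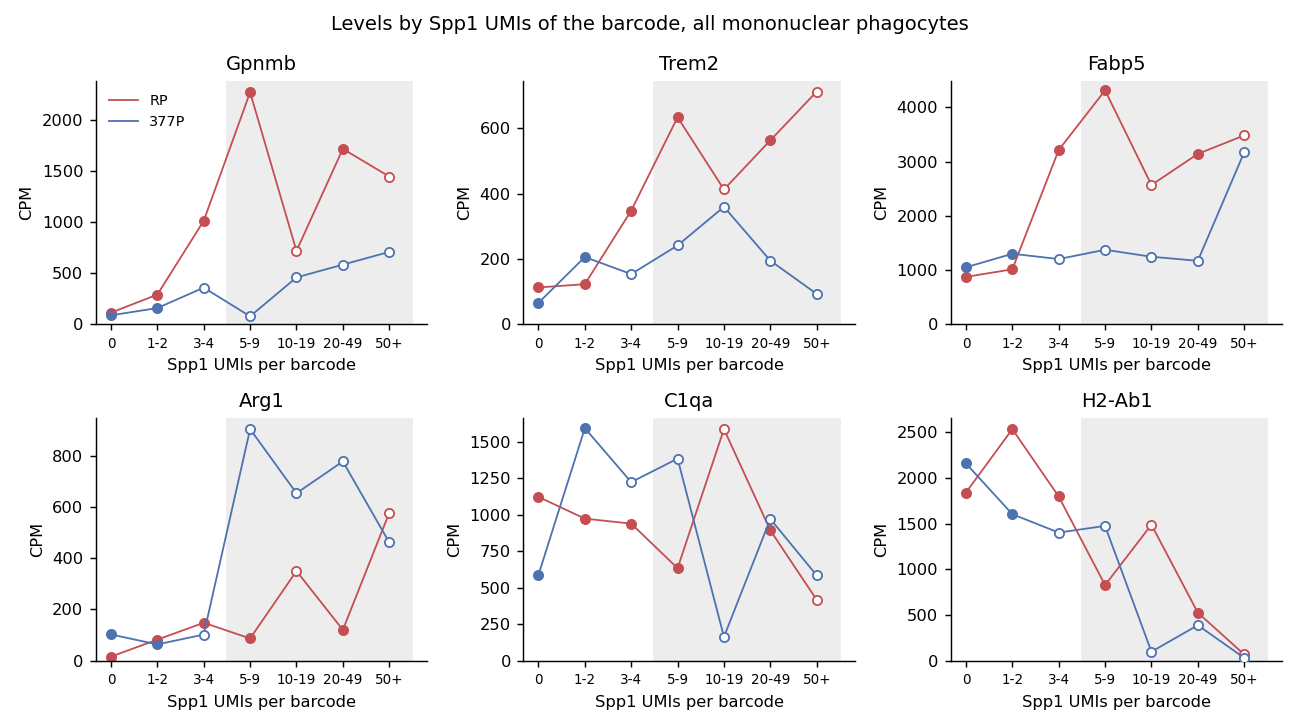
Each panel plots the CPM of a gene (y axis) in mononuclear phagocytes grouped by their Spp1 UMIs (x axis), for RP and 377P; the grey area holds the members, and open circles mark steps with fewer than 20 barcodes. Gpnmb and Fabp5 of RP are high from 3 to 4 Spp1 UMIs on, Arg1 of 377P is high from 5 to 9 on, and H2-Ab1 is lowest at 50 or more.

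Members differed among themselves in complement. C1q genes summed to at least 3 UMIs in 45 of 81 RP members and 11 of 19 377P members. Complement-high members, set against the complement-low ones by the same test, gave 0 calls among 2835 genes (0.00%) with edgeR. At an unadjusted p under 0.05 there were 90 genes, and DESeq2 called 3 higher and 3 lower. As a description, 20 of 21 lysosomal genes and 6 of 6 MHC class II genes had a log2 fold change above 0 in complement-high members (medians 0.43 and 0.35), and 1 of 9 classical monocyte genes did (median -1.39). Over all genes tested the median was -0.02 and 48.5% were above 0.

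Arg1 and Gpnmb marked members that overlapped in part. In RP, 17 of 81 members had UMIs of both, 7 had Arg1 without Gpnmb, 40 had Gpnmb without Arg1 and 17 had neither. In 377P, 6 of 19 had both, 6 had Arg1 without Gpnmb, 3 had Gpnmb without Arg1 and 4 had neither. At least 10 UMIs of Gpnmb were found in 29 RP members and 1 377P member, and at least 10 of Arg1 in 3 members of each library. No member had 10 or more of each, and with so few Arg1-rich members no exclusion can be read from this.

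**Figure D4:**
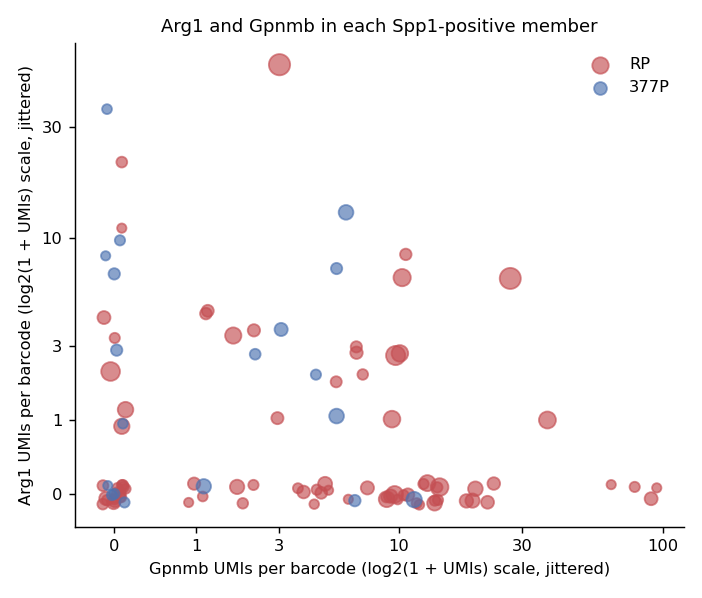
Each point is a member, placed by its Gpnmb UMIs (x axis) and Arg1 UMIs (y axis) on a log2(1 + UMIs) scale with a small jitter; point size grows with its Spp1 UMIs. RP members spread along the Gpnmb axis, 29 of them at 10 UMIs or more, and 12 of 19 377P members lie above 0 on the Arg1 axis.

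Between the libraries, members of RP carried more of the lipid program and members of 377P more Arg1. Of 4737 genes with at least 20 UMIs, 456 (9.63%) were at least 2-fold higher in RP and 327 (6.90%) at least 2-fold higher in 377P, with a median log2 ratio of -0.07. Of the 20 lipid program genes, 8 were past 2-fold higher in RP and none in 377P (median log2 ratio 0.81). Spp1 itself was 1.96-fold higher in RP (1.76 to 2.17), Gpnmb 4.78-fold (3.54 to 6.61), Cd36 3.75-fold (2.55 to 5.71) and Trem2 2.56-fold (1.77 to 3.83). Arg1 was 2.69-fold higher in 377P (2.06 to 3.49). Among members with at least 10 Spp1 UMIs, the log2 ratio of Gpnmb was 1.18 and that of Arg1 -0.72, both nearer to 0.

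The 8 named genes higher in RP differed in how many cells carried them. Gpnmb had UMIs in 57 of 81 RP members and 9 of 19 377P members. Mmp12 had them in 27 of 81 RP members, at 329 CPM, and in 1 of 19 377P members, whose 1 UMI gives 7.43 CPM and a 44.3-fold ratio with a counting interval of 7.84 to 1759. Retnla was at least 18.8-fold higher in RP against the floor of 3 counts per library, yet 1 barcode held 98.6% of its UMIs. That barcode held 91.5% of the UMIs of Lyz1 as well. Another barcode held 99.1% of those of Crct1, an epithelial cornification gene with 211 UMIs in RP members and 0 in 377P members, and 90.1% of those of Psca. For Mfge8, a bridge between dying cells and alpha v integrins, and S100a9, the richest RP barcode held 68.7% and 66.5%, although 25 and 19 of 81 RP members had a UMI. For Gpnmb and Mmp12 the richest RP barcode held 11.8% and 17.9%.

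Among the 8 named genes higher in 377P, Slpi, a secreted protease inhibitor, was 5.51-fold higher in 377P (4.72 to 6.44), at 538 CPM in RP members and 2964 CPM in 377P members, with UMIs in 52 of 81 and 14 of 19. Tgfbi, an extracellular matrix protein, was 2.95-fold higher in 377P, with UMIs in 52 of 81 RP members and 16 of 19 377P members. The endocytic adaptor Dab2, the lectin Chil3 and the cystine transporter Slc7a11 were 3.04, 2.99 and 2.56-fold higher in 377P. The heat shock genes Hspa1a and Hspa1b, known to respond to tissue dissociation, were 3.29 and 2.96-fold higher in 377P, and 1 barcode of 377P held 58.8% of the Hspa1a UMIs. Both ratios fell under 2-fold without the barcode of each library with the most UMIs, where the log2 ratios of RP over 377P were -0.58 for Hspa1a and -0.86 for Hspa1b, and after thinning, where they were -0.36 and -0.80. Without the richest barcode of each gene in each library, the log2 ratio of Slpi was -2.02, of Arg1 -1.38 and of Gpnmb 2.40.

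Some of these differences were found in the Spp1-zero phagocytes too. There the log2 ratio of RP over 377P was -2.69 for Arg1, against -1.43 in members, so the lower Arg1 of RP was not particular to members. It was 0.39 for Gpnmb, against 2.26 in members, and -0.45 for Slpi, against -2.46 in members. For Trem2 and Cd36 it was 0.79 and 1.02, against 1.36 and 1.91 in members. No difference between these ratios was tested.

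**Figure D5:**
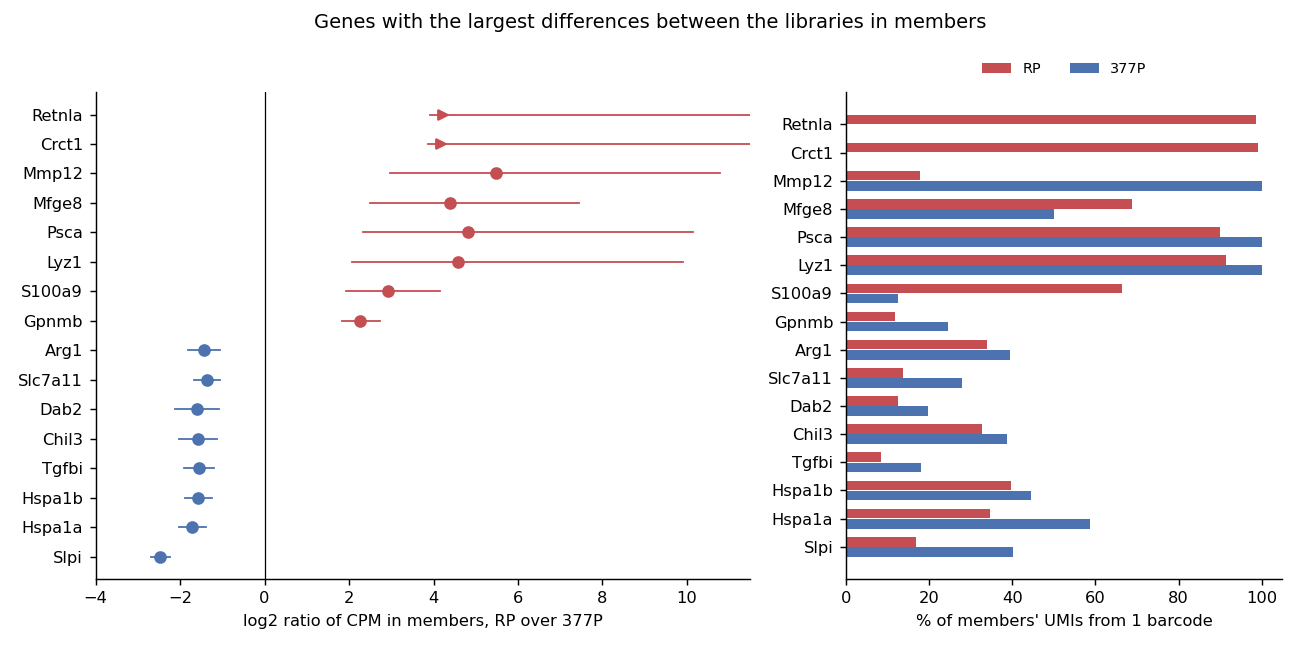
The left panel plots the log2 ratio of CPM, RP over 377P, in the members for the 16 named genes, with exact 95% counting intervals; triangles are lower bounds for genes at 0 in 377P, and an interval that reaches the edge is open. The right panel plots the share of the members' UMIs of each gene that came from its richest barcode in RP and in 377P: Retnla, Crct1, Psca and Lyz1 exceed 90% in RP, Mmp12 and Gpnmb lie below 20% there.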

How the data were processed

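Single cells of mouse maxillary periodontium had been profiled in 2 libraries with 10x Chromium 3' v3 kits, per the labels' protocols. The deposited matrices hold raw UMI counts per gene and barcode, written by Cell Ranger 7.0.1 per the file headers; Cell Ranger, STAR and the mm10 genome are named in the submitters' processing notes. No source at hand gives the annotation release or whether intronic reads were counted.

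Members and lists were chosen with earlier results of these data known. Counts were summed per library and barcode set and scaled to CPM. Poisson, ratio and Clopper-Pearson intervals were exact. edgeR 4.0.16 (TMM, filterByExpr, library as block) gave the test, DESeq2 1.42.0 an alternative; the genes of the rule were not tested. Both sets of a library come from its own cells, which is where the pairing comes from. The fits and intervals were tested on simulated data. For the fits, summed counts were simulated with the same spread for every gene and without single barcodes. That setting does not cover genes whose UMIs came mostly from 1 barcode. Scrublet (Scanpy 1.11.5, expected share 12%) marked doublets, which were removed only as an alternative. A count of 0 was set to 3 per library in ratios, and no ratio is given where both counts were 3 or fewer.

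Named genes were the 12 largest rises and 8 largest falls past the threshold, in the same direction in both libraries, with at least 50 CPM and 50 UMIs in the higher set of each library and no less there than in barcodes outside the gates; between libraries, 8 genes each way ranked by the interval bound nearest 1. Mitochondrial, ribosomal, hemoglobin, immunoglobulin, predicted and sex-linked genes and genes of the rule were left out. The rule names the 2 highest members of each list each way; other list genes were picked after their values were seen. Gene coordinates are from GENCODE M21 (GRCm38), where 343 of 343 genes matched by Ensembl ID. Promoters for 3 genes are from RefSeq; Arg1 and Fabp5 are named only.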

Additional observations from a re-analysis of the deposited data

Results flagged for a closer look

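In 16 of 268 tested list or named genes, members were above Spp1-zero phagocytes in 1 library and below them in the other, with both counting intervals off a ratio of 1. Over all 8175 tested genes there were 61 such cases. The difference between the libraries was not tested, and values are log2 ratios of CPM, members over Spp1-zero.

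For 14 genes members were lower in RP and higher in 377P. Among genes of resident macrophages, Lyve1, a hyaluronan receptor, had -3.60 in RP and 3.60 in 377P, where 1 barcode held 78.6% of its 14 UMIs; RP members had 3 UMIs of it. The transcription factor Maf had -1.34 in RP and 1.44 in 377P, and Mrc1 had -1.65 in RP and 0.61 in 377P. Cbr2 had -0.54 in RP and 1.77 in 377P, and Selenop had -0.68 in RP and 0.93 in 377P. The coagulation factor gene F13a1 had -0.54 in RP and 0.51 in 377P. The complement genes C1qa and C1qc had -0.41 in RP and 0.61 in 377P, and -0.38 in RP and 0.60 in 377P. Dab2 had -0.60 in RP and 1.5 in 377P, and the protease Ctsc had -0.37 in RP and 0.46 in 377P. Among chemokines, Cxcl10 had -0.85 in RP and 0.96 in 377P, Ccl4 had -0.42 in RP and 0.83 in 377P, and Ccl7 had -0.24 in RP and 1.0 in 377P. Slpi had -0.43 in RP and 1.58 in 377P.

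For 2 genes members were higher in RP and lower in 377P. Mmp12 had 1.67 in RP and -2.58 in 377P, and Mfge8 had 1.54 in RP and -2.73 in 377P. In the members of 377P these rest on 1 and 2 UMIs.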

How the results depend on the processing

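Against the 347 genes changed between members and Spp1-zero phagocytes, DESeq2 called 107, the fit without the library block (no replicate block) 9, thinning to 3000 UMIs 181 and members with at least 10 Spp1 UMIs 198. Alternatives chosen after seeing the data called 171 without the 5 members richest in Spp1 per library and 17 among complement-positive barcodes; of 257 main calls refitted there, 251 had the same direction. The other 6 alternatives stayed within 1.5 times. With neutrophil-type barcodes left out, Ngp (0.024) and S100a8 (0.15) turned to log2 values above 0. These barcodes had been chosen by their S100a8 and S100a9 UMIs, so this turn is no independent result. Each library alone gave the same direction for the 20 genes named from this comparison, which the naming rule had required. For complement-high against complement-low members, calls numbered 6 by DESeq2, 30 without a filter on low counts, 20 with doublets removed and 39 with a split at 10 C1q UMIs, against 0; the cause was not tested. The share of members in RP was 0.619% with at least 3 Spp1 UMIs and 0.324% with at least 10, and 0.0651% in 377P with at least 10. Genes past 2-fold between libraries numbered 1799 with no filter and 469 after thinning, since fewer or more genes were counted. After thinning, S100a9 had a log2 ratio of -1.37, RP over 377P; its richest RP barcode had 2218 UMIs and was left out. The 19 members of 377P held 134626 UMIs, which limits what can be read from low genes there.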

Other observations

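Other gene groups were compared between members and Spp1-zero phagocytes in the same way. Of 24 glycolysis and hypoxia genes tested, 2 rose (Vegfa and Pgam1) and none fell, with a median log2 fold change of 0.20. Of 10 iron and heme genes, Ftl1 rose (log2 fold change 0.62), and Hmox1, which degrades heme, stood at 665 CPM in RP members and 980 CPM in 377P members, against 647 and 663 CPM. Of 13 interferon response genes, Ifit1 fell and none rose. Of 13 cell cycle genes, Hmgb2 fell and none rose, and 12 of 13 had a log2 fold change below 0 (median -0.86). With neutrophil-type barcodes left out, none of 8 passed. Of 11 genes for the uptake of dying cells, 4 rose, namely Cd36, Itgav, Abca1 and Lrp1 (median 0.65). Genes named here within counts of 5 or fewer were chosen after their values were seen. Of 4 dendritic cell markers tested, Cd209a and Ccr7 fell, and of 2 B or plasma cell genes tested, Ighm fell.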
